A study of Mus musculus with 12 samples.

Results

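The chromosome 9 genes Rpl29, Nudt16, Alas1, Abhd14b, Dusp7, Hyal1 and Acp3, were followed across 12 RNA libraries of mouse peritoneal macrophages. They are 7 of the 12339 genes in the count table, taken by symbol from a list of chromosome 9 genes that set one group, wild-type mice on a high-fat diet, apart from the other 3 groups. The list was drawn from these same counts, so every comparison that includes that group describes how the genes were chosen and carries no test. The label held in the counts for 6 of the 7 genes. For Hyal1 it did not, since one wild-type library from the chow diet lay within the range of the high-fat libraries.

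The study compared wild-type mice (WT) with mice labelled meKO, on a chow diet or a high-fat diet (HFD), with 3 libraries in each of the 4 groups. From the title of the series, which speaks of protein kinase C epsilon in myeloid cells, meKO is read as a myeloid knockout of the gene of that kinase, Prkce; the labels name no recombinase line. All 4 groups, chow controls included, received the same injection at 8 weeks of age, and the cells were collected by lavage after thioglycolate had drawn them into the peritoneum, 4 weeks into the diet period. The labels describe more animals than libraries and do not say whether each library came from a single mouse, so p-values below measure the spread between these libraries only.

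Library totals ran from 25844958 to 37282772 counts. Levels are given as CPM, counts scaled to library size with TMM factors, which align the bulk of the genes between libraries. Prkce, the targeted gene, lay between 2.01 and 4.44 CPM in the 6 WT libraries and between 0.950 and 1.78 CPM in the 6 meKO libraries, with no overlap. All 8 macrophage markers on a fixed list were among the listed genes. One library stood apart: in meKO chow library 2, Lyz2, the macrophage lysozyme gene, was at 69.3 CPM, against at least 16293 CPM in each of the other 11. In WT chow libraries 1 and 2 a gene's deviation from its mean over libraries rose with transcript length (Spearman's rho across genes 0.62 and 0.67), against −0.45 to 0.14 in the other 10.

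The 7 genes do different work. Rpl29 encodes a protein of the large ribosomal subunit. Nudt16 is a Nudix hydrolase that removes caps from certain nuclear RNAs and hydrolyses inosine nucleotides. Alas1 encodes the housekeeping form of the enzyme that starts heme synthesis in mitochondria, and its step limits the rate of the pathway. Abhd14b is a small enzyme of the alpha/beta hydrolase fold, and Dusp7 is a phosphatase that inactivates ERK kinases. Hyal1 is a lysosomal hyaluronidase, which cuts the matrix sugar hyaluronan, and Acp3 is an acid phosphatase best known from prostate. Macrophages use lysosomal hydrolases to break down what they engulf, and ERK signalling to respond to stimuli. What the genes share by annotation is position: all lie within 3.29 Mb of chromosome 9 (GRCm38.p6, the same assembly as the mm10 build named in the submitters' notes).

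From the proximal end, Acp3 (Entrez 56318) lies at chr9:104288240-104337722 on the minus strand and Nudt16 (Entrez 75686) at chr9:105129332-105133133, also minus. Alas1 (Entrez 11655) follows at chr9:106233455-106247954 on the minus strand. The other 4 are on the plus strand: Dusp7 (Entrez 235584) at chr9:106368560-106375724, Rpl29 (Entrez 19944) at chr9:106428889-106431568, Abhd14b (Entrez 76491) at chr9:106447737-106452923 and Hyal1 (Entrez 15586) at chr9:107576950-107581699. Dusp7 and Rpl29 are immediate neighbours among the listed genes.

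Rpl29 has a near-identical copy in the same count table, and the sequences matter for reading its counts. The copy, Gm8210 (Entrez 666642), is annotated as a processed pseudogene at chr1:43189052-43189773. Of the 483 coding bases of Rpl29, 480 are the same in Gm8210, an identity of 99.4%. The differences are C72A, C300T and T423C, counted from the first coding base with the Rpl29 base first; on chromosome 9 they fall in exonic positions 106430342, 106431266 and 106431389. The stretches around each difference are shown, with the differing base in capitals, because only reads over these bases can tell the coding parts apart.
Rpl29 bases 52 to 92: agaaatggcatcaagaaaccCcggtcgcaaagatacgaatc
Gm8210 bases 52 to 92: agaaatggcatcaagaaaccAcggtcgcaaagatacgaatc
Rpl29 bases 280 to 320: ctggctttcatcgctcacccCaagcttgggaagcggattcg
Gm8210 bases 280 to 320: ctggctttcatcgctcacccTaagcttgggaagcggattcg
Rpl29 bases 403 to 443: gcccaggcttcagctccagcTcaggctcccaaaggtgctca
Gm8210 bases 403 to 443: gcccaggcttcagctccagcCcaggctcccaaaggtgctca
The aligner and its treatment of reads that match both genes are not given in the sources used here. Rpl29 on its own is therefore an uncertain measurement.

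Promoters were looked at because genes so close together moved with the same libraries. RefSeq windows on GRCm38.p6, from 250 bases before to 50 after a transcript start, were matched for 6 of the 7 genes (7 windows, 2 of them for Alas1). Both strands were searched for 6 short motifs, none of which contains another. The CCAAT box, spelled CCAAT, was found in 3 windows (Dusp7, Hyal1 and Nudt16), while 37.4% of all 32851 windows in the table hold it. The GC box, GGGCGG, was found in windows of 4 genes (Alas1, Dusp7, Hyal1 and Nudt16), against 35.7% of all windows. The ETS core, CTTCCG, was found in Nudt16 alone, against 16.9% of all windows. In 0 of the 7 windows was there a TATA box, searched as TATAAA, which 13.6% of all windows hold. Likewise 0 windows held the E-box written CACGTG (7.15% of all windows) or the cAMP response element written TGACGTCA (1.79% of all windows). Nudt16 and Hyal1, which were higher in WT HFD, and Abhd14b, which was lower, are printed below with matches on either strand in capitals. Nudt16 and Hyal1 share CCAAT and GGGCGG, and Abhd14b holds none of the 6 motifs, which says only that those letters are not in this window. Dusp7, which was lower in WT HFD, also holds CCAAT and GGGCGG, and Alas1, also lower, holds GGGCGG. These motifs were thus not confined to the genes higher in WT HFD.
Nudt16, chr9:105131756-105132055, minus strand: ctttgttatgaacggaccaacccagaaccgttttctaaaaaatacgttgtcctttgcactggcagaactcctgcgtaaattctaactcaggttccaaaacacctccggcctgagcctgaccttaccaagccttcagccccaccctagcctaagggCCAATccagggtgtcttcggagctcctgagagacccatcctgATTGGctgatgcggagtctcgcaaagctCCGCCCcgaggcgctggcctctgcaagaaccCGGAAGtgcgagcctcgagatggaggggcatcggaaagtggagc
Hyal1, chr9:107576700-107576999, plus strand: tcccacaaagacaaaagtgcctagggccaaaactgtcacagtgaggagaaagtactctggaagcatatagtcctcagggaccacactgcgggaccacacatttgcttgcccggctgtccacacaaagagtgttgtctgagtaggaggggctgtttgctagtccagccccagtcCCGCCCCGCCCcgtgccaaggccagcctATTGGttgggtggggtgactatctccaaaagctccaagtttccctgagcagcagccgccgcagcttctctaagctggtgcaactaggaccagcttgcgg
Abhd14b, chr9:106448390-106448689, plus strand: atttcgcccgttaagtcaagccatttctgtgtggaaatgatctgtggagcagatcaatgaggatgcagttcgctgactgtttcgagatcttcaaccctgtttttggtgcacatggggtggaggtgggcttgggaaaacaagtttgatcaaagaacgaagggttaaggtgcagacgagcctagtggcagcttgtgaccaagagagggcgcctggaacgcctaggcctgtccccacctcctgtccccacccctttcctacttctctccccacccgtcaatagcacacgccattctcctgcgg

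To show the pattern the genes were chosen on, the value of each gene in each library is given first, in the order of libraries 1, 2 and 3 of a group. Rpl29 was at 6.51, 6.89 and 6.65 CPM in WT HFD and at 130, 67.2 and 97.5 CPM in WT chow. The meKO libraries were at 211, 197 and 171 CPM on chow and 204, 322 and 221 CPM on HFD. The WT HFD libraries were far the lowest and nearly equal, WT chow lay in between without overlap on either side, and the ranges of the meKO diets overlapped.

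Nudt16 showed the opposite order. Its level was 93.1, 94.4 and 94.7 CPM in WT HFD and 17.6, 53.5 and 61.6 CPM in WT chow. On chow the meKO libraries were at 23.9, 19.2 and 20.4 CPM, and on HFD at 19.0, 20.6 and 20.2 CPM. The 6 meKO libraries thus stayed within a narrow band, and WT chow library 1 fell just below it while libraries 2 and 3 lay about midway to WT HFD.

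Alas1, the heme enzyme, was at 79.1, 82.2 and 76.5 CPM in WT HFD and at 120, 84.0 and 103 CPM in WT chow. The meKO values were 130, 98.7 and 126 CPM on chow and 129, 169 and 147 CPM on HFD. WT HFD was lowest by a small margin, since WT chow library 2 came within 0.03 log2 units of it, and the 2 chow groups overlapped. An antisense gene, 4930500F10Rik, covers 695 bases of Alas1.

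Abhd14b was at 4.17, 3.68 and 4.12 CPM in WT HFD and at 11.1, 7.97 and 10.8 CPM in WT chow. The meKO libraries were at 12.5, 10.8 and 14.8 CPM on chow and 9.75, 8.01 and 9.05 CPM on HFD. All other libraries lay above WT HFD, and in meKO the HFD libraries lay below the chow libraries. Abhd14b overlaps Abhd14a by 220 bases on the opposite strand and the antisense gene Gm28959. The strand setting of the counting is not given in the sources used here, so reads from overlapping genes cannot be told apart.

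Dusp7, the ERK phosphatase, was at 20.0, 19.6 and 19.3 CPM in WT HFD and at 38.5, 28.1 and 25.7 CPM in WT chow. On chow the meKO libraries were at 36.1, 38.4 and 31.9 CPM, and on HFD at 43.6, 34.5 and 34.4 CPM. WT HFD was lowest, and the other 3 groups formed a run in which neighbouring groups overlapped.

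Hyal1 was at 38.2, 40.7 and 34.7 CPM in WT HFD and at 22.5, 37.4 and 28.2 CPM in WT chow. In meKO it was at 22.9, 20.8 and 19.2 CPM on chow and 16.4, 18.3 and 19.7 CPM on HFD. WT HFD was above all 6 meKO libraries, but WT chow library 2 exceeded WT HFD library 3. Hyal1 shares 2824 bases with Naa80 and 893 with Hyal3 on the same strand, and the antisense gene Gm16343 overlaps it, so its counts are uncertain as well. Naa80 itself was at 20.3 to 23.6 CPM in WT HFD, inside the WT chow range of 19.2 to 30.0 CPM, and Hyal3 was at most at 1.11 CPM in the 12 libraries. In meKO, Naa80 was at 18.7 to 22.3 CPM on chow and 15.2 to 17.1 CPM on HFD. It was thus lower in meKO HFD than in WT HFD without overlap, the direction of Hyal1. With Naa80 counts added to Hyal1, the log2 difference (meKO HFD minus WT HFD) was −0.78, against −1.06 for Hyal1 alone.

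Acp3 was the least abundant, at 0.550, 0.448 and 0.662 CPM in WT HFD, which is 17, 13 and 22 counts. It reached 9.51, 4.80 and 2.35 CPM in WT chow. The meKO libraries were at 6.93, 3.12 and 9.88 CPM on chow and 5.71, 3.51 and 5.28 CPM on HFD. WT HFD lay below every other library, and the other 3 groups overlapped one another with wide spreads. These are bulk samples, in which fewer cells of a type and less RNA per cell cannot be told apart.

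**Figure D1:**
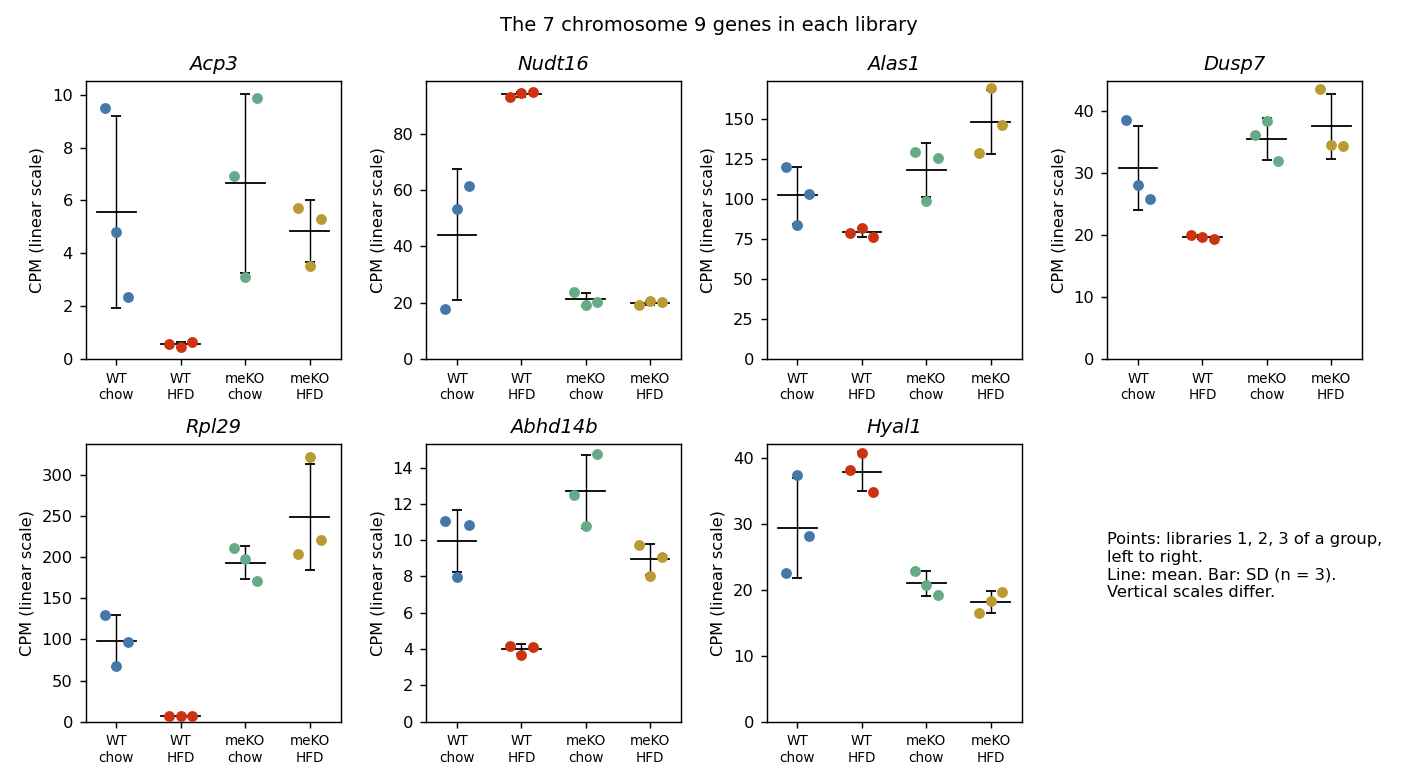
Level of each of the 7 genes in CPM (vertical axes, linear, starting at 0 and differing between panels) for the 3 libraries of each of the 4 groups, with the mean as a line and the SD as a bar. The WT HFD points lie apart from the other 9 libraries in every panel except Hyal1, where WT chow library 2 (37.4 CPM) falls among them.

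Levels of different genes can be compared only per transcript length. The length used was that of the longest annotated transcript of each gene, and the order under other transcripts was not examined. In meKO chow, mean CPM per kilobase was 229 for Rpl29, 34.8 for Alas1, 11.0 for Dusp7, 9.86 for Nudt16, 7.27 for Abhd14b, 6.96 for Hyal1 and 1.48 for Acp3. In WT HFD the order on that scale was Nudt16 at 43.8, Alas1 at 23.3, Hyal1 at 12.6, Rpl29 at 7.90, Dusp7 at 6.11, Abhd14b at 2.29 and Acp3 at 0.123. The place of Rpl29 in that order rests on the counts given to Rpl29 alone: with those of its copy Gm8210 added, at the Rpl29 length, the level was 205 CPM per kilobase in WT HFD and 241 in meKO chow.

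Set against meKO HFD, the same diet in the other genotype, the log2 differences (meKO HFD minus WT HFD) were 5.22 for Rpl29, 3.11 for Acp3, 1.16 for Abhd14b, 0.93 for Dusp7 and 0.90 for Alas1. They were −1.06 for Hyal1 and −2.24 for Nudt16. Of the 7 genes, 6 passed an adjusted p under 0.05 in edgeR, where 0.081% of all genes did, and in 7 of 7 the libraries of these groups did not overlap, against 10.3% of all genes. Acp3, at 13 to 22 counts in each WT HFD library, was the member that did not pass in this fit. DESeq2 called 7 of the 7, where it called 53 of all genes, and limma-voom called 3 (Hyal1, Nudt16 and Rpl29). EdgeR called 7 on the 6 libraries of the contrast alone and without WT chow library 1 or 3. It called 1, Rpl29, without any one of the WT HFD libraries or meKO HFD library 3, and 2 without meKO HFD library 1 or 2. As this contrast was used to pick the genes, these counts are not evidence of anything beyond the choice. Among the 11500 genes averaging 1 CPM or more, ranked by the log2 gap between WT HFD and the nearest other library, Rpl29 had rank 1 (3.20), Acp3 rank 3 (1.29), Abhd14b rank 5 (0.86), Nudt16 rank 6 (0.59) and Dusp7 rank 10 (0.36). Alas1, just inside, had rank 97 (0.03), and Hyal1, just outside, rank 711 (−0.11, an overlap). The rank of Rpl29 is that of its own counts: the sum with Gm8210 was 156 to 185 CPM in WT HFD, overlapping the 119 to 176 CPM of WT chow. Lyz2 was also higher in WT HFD, at 30482 to 37662 CPM, than in meKO HFD, at 16293 to 18865 CPM. The summed level of the 8 macrophage markers (8 of 8 listed) followed Lyz2. It was 36048 to 43120 CPM in WT HFD and 22071 to 23933 CPM in meKO HFD. The gap between the sums is close to that of Lyz2, so they give no sign of a difference in the other markers. The part of these markers in the differences of the 7 genes was not tested.

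Against WT chow, the same genotype on the other diet, the log2 differences (WT HFD minus WT chow) were −3.88 for Rpl29, −3.32 for Acp3, −1.32 for Abhd14b, −0.65 for Dusp7, −0.37 for Alas1, 0.37 for Hyal1 and 1.09 for Nudt16. Here 5 of 7 passed (3 without WT HFD library 1 or 3), against 21.3% of all genes, and 6 of 7 did not overlap, against 39.3%. The rule used this contrast too, and both contrasts share the WT HFD libraries. Summed B cell markers (5 of 5 listed) were lower in WT HFD, at 51.9 to 87.2 CPM, than in WT chow, at 106 to 163 CPM, as were summed dendritic cell markers (4 of 4 listed), at 5.59 to 6.28 against 8.23 to 12.8 CPM. Their part in the diet differences was not tested. In none of 10 cell type lists did the summed level of the 3 WT HFD libraries lie outside the range of the other 9.

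The copy of Rpl29 was high where Rpl29 was low. Gm8210 was at 172, 149 and 178 CPM in WT HFD, where Rpl29 was under 7 CPM. In WT chow it was at 7.07, 51.7 and 78.1 CPM, and in the 6 meKO libraries between 9.30 and 16.6 CPM. Gm8210 thus held 96.4%, 95.6% and 96.4% of the counts of both genes in the WT HFD libraries. In WT chow library 1 it held 5.17% (95% Wilson interval 4.58 to 5.83), while in libraries 2 and 3 it held 43.5% (41.9 to 45.1) and 44.5% (43.1 to 45.8). In the meKO libraries the share was 4.44% to 5.50%. These intervals cover counting error only. The shares fell at 3 levels with nothing between them: 7 libraries near 5%, 2 near 44% and 3 near 96%.

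Added together, Rpl29 and Gm8210 differed far less between groups than Rpl29 alone. The sum was 173 ± 15.3 CPM in WT HFD, 144 ± 28.9 in WT chow, 203 ± 20.6 in meKO chow and 262 ± 67.1 in meKO HFD (mean ± SD, n = 3 each). With the counts summed before the fit, the log2 difference between meKO HFD and WT HFD was 0.60 in place of 5.22, and that between WT HFD and WT chow was 0.27 in place of −3.88, a change of sign. The sum still lay higher in meKO HFD, at 216 to 339 CPM, than in WT HFD, at 156 to 185 CPM, without overlap. This sum, like that of Hyal1 and Naa80, was chosen after the data had been seen. Annotated copies of at least 90% identity over at least 400 bases were found in 59 other genes, of which 3 are in the table: Gm8210, Uimc1 and 4931440P22Rik. In neither Uimc1 nor 4931440P22Rik did the WT HFD libraries lie outside the others.

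**Figure D2:**
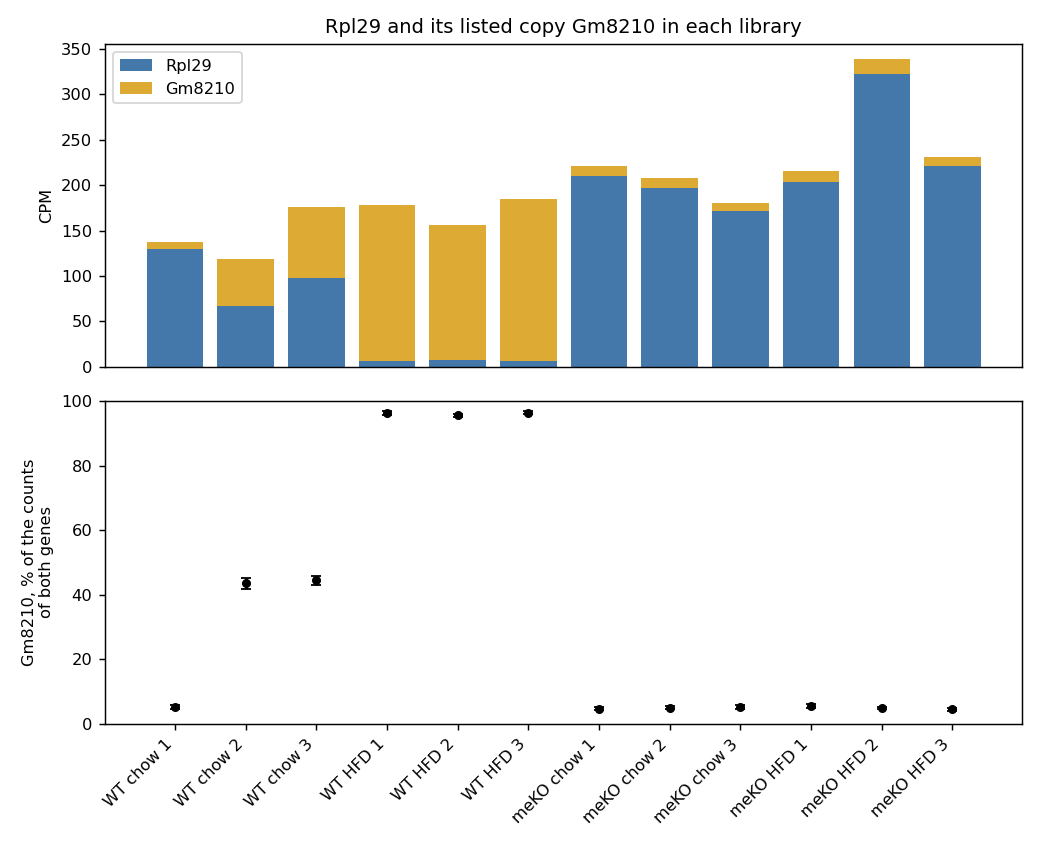
Stacked CPM of Rpl29 and its copy Gm8210 in each of the 12 libraries (top, linear axis from 0) and the share of both genes' counts held by Gm8210 in percent with its 95% Wilson interval (bottom). The share is near 96% in WT HFD, near 44% in WT chow libraries 2 and 3, and 4.44% to 5.50% in WT chow library 1 and the 6 meKO libraries, while the stacked height changes less than either part.

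To evaluate the genes on libraries the choice did not turn on, the genotypes were compared on chow and the diets within meKO. Neither contrast holds a WT HFD library, although WT chow and meKO HFD were among the groups the choice compared against, so neither is fully separate from it. On chow, 0 of the 7 genes passed in edgeR's quasi-likelihood test adjusted over all genes, where 10 of 12339 (0.081%) did. At an unadjusted p under 0.05 there were 4 of 7, against 19.8% of all genes. DESeq2 called 2 of the 7, where it called 563 of all genes, and limma-voom called 0, where it called 2 of all genes.

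Rpl29 had the smallest p of the 7 on chow, with a log2 difference (meKO minus WT) of 0.98 ± 0.21 (SE) and an edgeR adjusted p of 0.0794. Its groups did not overlap, with all 3 meKO libraries above all 3 WT libraries; of the 7 genes it was the only one without overlap, against 17.1% of all genes. DESeq2 gave it an adjusted p of 0.00173, and edgeR without WT chow library 3 gave 0.0239. With Gm8210 added the difference was 0.50 ± 0.18 (edgeR adjusted p 0.160). Over all alternatives its adjusted p ran from 0.00173 to 0.321, so whether Rpl29 was called depended on the test and on 1 library.

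Nudt16, the decapping hydrolase, differed by −1.06 ± 0.32 on chow (edgeR adjusted p 0.127), and its WT chow library 1 lay below all meKO chow libraries. Leaving out that library moved the difference to −1.43 with an edgeR adjusted p of 0.000232, and DESeq2 on all libraries gave 0.0200. Over all alternatives the adjusted p ran from 0.000232 to 0.481, so whether Nudt16 was called depended on 1 WT library and on the test.

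Hyal1 differed by −0.48 ± 0.16 (edgeR adjusted p 0.144), and by −0.36 ± 0.15 with the counts of Naa80 added (0.205). Abhd14b differed by 0.35 ± 0.16 (0.251). The differences of Acp3 (0.25 ± 0.44), Alas1 (0.21 ± 0.15) and Dusp7 (0.20 ± 0.15) were smaller, with edgeR adjusted p from 0.426 to 0.764. Without meKO chow library 2, whose Lyz2 was low, Rpl29 differed by 0.97 and Nudt16 by −0.98, and 0 of the 7 passed. Lyz2 was also lower in meKO chow (69.3 to 21309 CPM) than in WT chow (31225 to 53835 CPM). The sum of the 8 macrophage markers followed Lyz2, at 5691 to 27390 CPM in meKO chow and 36791 to 59395 CPM in WT chow. These sums give no sign that the other markers were lower in meKO chow. The part of the markers in the differences of the 7 genes on chow was not tested.

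Within meKO, 0 of the 7 genes passed for diet in edgeR, where 13 of 12339 genes (0.105%) did, nor in DESeq2 or limma-voom, and 2 of 7 had an unadjusted p under 0.05, against 15.9% of all genes. Abhd14b differed by −0.50 ± 0.16 (meKO HFD minus meKO chow, edgeR adjusted p 0.215) and was the only one without overlap, against 19.7% of all genes. Alas1 differed by 0.33 ± 0.15 (0.301) and Rpl29 by 0.37 ± 0.21 (0.380). For Acp3 the difference was −0.45 ± 0.44 (0.621), and for Hyal1 −0.21 ± 0.16 (0.515). Dusp7 at 0.08 ± 0.15 (0.811) and Nudt16 at −0.09 ± 0.32 (0.915) were closest to 0. A p above the threshold does not show that a gene was equal on both diets. Summed mesothelium and fibroblast markers (5 of 5 listed) were lower in meKO chow, at 12.8 to 40.2 CPM, than in meKO HFD, at 42.8 to 46.6 CPM, as were T and NK cell markers (5 of 5 listed), at 8.82 to 9.36 against 11.5 to 13.1 CPM. Their part in the diet differences in meKO was not tested.

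The 3 WT chow libraries were not alike. On a scale where the mean of the 6 meKO libraries is 0% and the WT HFD mean is 100%, the median over the 7 genes was −3.70% for WT chow library 1, 50.0% for library 2 and 56.0% for library 3. WT chow library 1 was inside the range of the meKO libraries for 5 of the 7 genes, library 2 for 1 and library 3 for 2. Nudt16 gave −4.00%, 44.8% and 55.8%, and Gm8210 gave −2.84%, 26.0% and 43.0%. Rpl29 gave 42.5%, 71.8% and 57.6%, so WT chow library 1 was intermediate for this gene. WT chow library 1 was the farthest of the 3 from WT HFD in 7 of the 7 genes, in 6 of the 7 other window genes with the pattern, and in 75 of 123 such genes elsewhere in the genome. The libraries fell into other pairs by the transcript length trend, which was high in libraries 1 and 2 and near 0 (−0.04) in library 3.

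**Figure D3:**
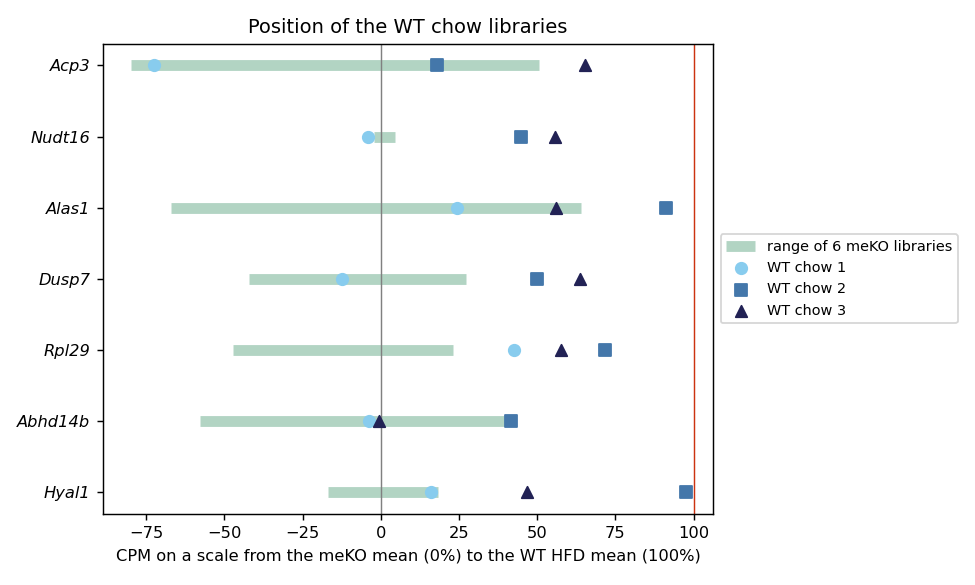
Position of each WT chow library (circle, square and triangle for libraries 1, 2 and 3) for each of the 7 genes, on a horizontal axis in percent from the mean of the meKO libraries (0) to the mean of WT HFD (100); the bar is the range of the 6 meKO libraries. Library 1 is the leftmost marker in every row, and the medians of libraries 2 and 3 are 50.0% and 56.0%.

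The 7 genes span a window of 3.29 Mb, from the start of Acp3 to the end of Hyal1, with 40 listed genes. Of the 36 that averaged 1 CPM or more, 13 (36.1%) had all 3 WT HFD libraries outside the range of the other 9, 10 of them below and 3 above, where 136 of 11500 genes did in all (1.18%). The same count in the window was 4 for the WT chow libraries (10.7% of all genes), 0 for meKO chow (0.574% of all genes) and 3 for meKO HFD (2.6% of all genes). Without the 7 chosen genes, WT HFD had 7 of 29 (24.1%). The flanks of 5 Mb on each side had 6 of 82 (7.32%), and the rest of chromosome 9 had 9 of 495 (1.82%). These shares describe where the pattern used for the choice was found, with no test.

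The 7 other window genes were Mrpl3, Atp2c1, Tlr9, Abhd14a, Parp3, Mapkapk3 and Hemk1. Mrpl3, a mitochondrial ribosomal protein gene, was at 70.6 to 79.2 CPM in WT HFD against 31.7 to 56.5 in the other 9. Tlr9, the endosomal receptor for unmethylated CpG DNA, was at 0.782 to 1.55 CPM in WT HFD, and no other library was under 1.87. Atp2c1, a Golgi calcium pump, was at 76.3 to 78.1 CPM against at least 91.1 elsewhere. Parp3, a DNA repair enzyme, was at 11.7 to 12.3 CPM and at least 15.2 elsewhere. Mapkapk3, a kinase downstream of p38, was at 28.5 to 36.3 CPM and at least 43.0 elsewhere. Abhd14a was at 1.17 to 1.55 CPM and at least 2.06 elsewhere. Hemk1, a methyltransferase, was above the others, at 6.99 to 7.30 CPM with no other library over 5.85. Dock3, below the 1 CPM minimum, also had WT HFD below the others, at 0.0301 to 0.103 CPM against 0.264 to 1.22 CPM. In WT HFD it lay below Acp3 (0.448 to 0.662 CPM, 13 to 22 counts). It thus rests on fewer counts still, and its separation is uncertain.

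Most of the window did not show it. Among the direct neighbours of the 7 genes, Poc1a was at 1.62 to 2.05 CPM in WT HFD and 2.03 to 2.98 in the others. Acy1, next to Rpl29, was at 3.64 to 4.06 CPM in WT HFD, inside the 2.57 to 4.59 of the others. Pcbp4 and Hyal2 overlapped likewise, Hyal2 at 31.0 to 33.1 CPM against 25.1 to 42.7. In the contrasts without WT HFD, 0 of the 40 window genes passed for genotype on chow in edgeR, where 0.081% of all genes did. At an unadjusted p under 0.05 there were 11, against 19.8% of all genes, and DESeq2 called 4 (563 of all genes) and limma-voom 0. For diet in meKO 0 of the 40 passed in any of the 3 tools, and 4 had an unadjusted p under 0.05 in edgeR, against 15.9% of all genes. With meKO HFD set against WT HFD 6 of 40 passed in edgeR, against 0.081% of all genes, all among the chosen 7. Among the 33 window genes not chosen, 16 (48.5%) had libraries of these groups that did not overlap, against 10.3% of all genes. The window was drawn around the chosen genes, so this share is a description with no test. DESeq2 called 12 of the 40 (53 of all genes), the 7 chosen genes and others. Limma-voom called 3, and edgeR without any one WT HFD library called 1. For diet in WT 14 of 40 passed. Of the 33 others, 9 (27.3%) passed for diet in WT, against 21.3% of all genes: Mrpl3, Atp2c1, Tlr9, Abhd14a, Parp3, Rad54l2, Dock3, Mapkapk3 and Rassf1.

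**Figure D4:**
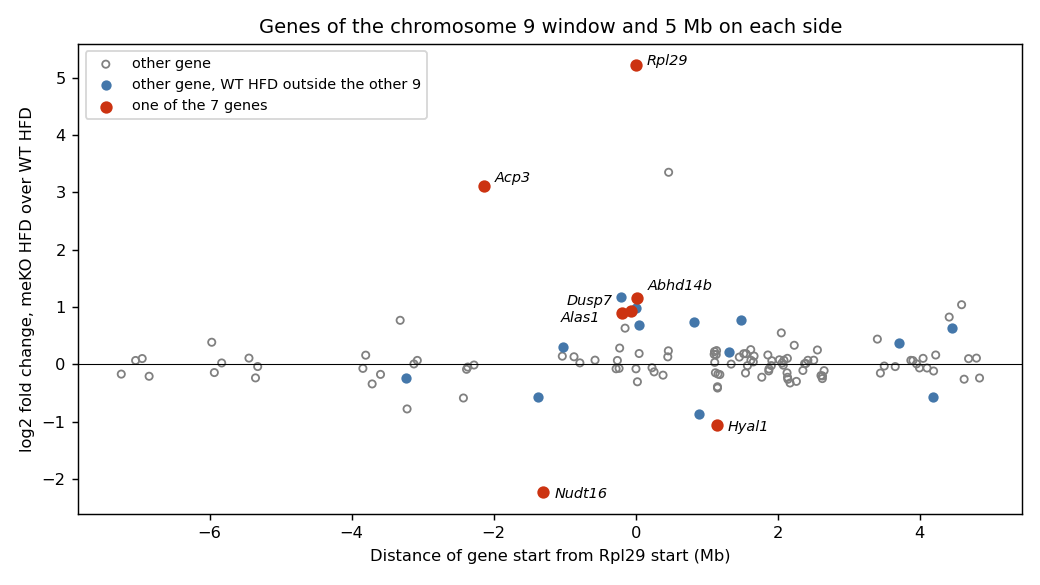
Log2 difference between meKO HFD and WT HFD (vertical axis) of each listed gene in the window and 5 Mb on each side, against the distance of its start from that of Rpl29 in Mb (horizontal axis). Filled red points are the 7 genes, filled blue points other genes whose WT HFD libraries lie outside the other 9, and open points the rest, most of which lie near 0; the high open point is Dock3, which is below the 1 CPM minimum.

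Across the genome, chromosome 9 held 28 of the 136 genes with the pattern (20.6%) but 5.33% of the genes counted. That is 4.57% of its 613 genes, and the next chromosomes were 17 with 18 genes (2.94%) and 7 with 16 genes (1.80%). On chromosome 9, 21 of the 28 were below and 7 above the other libraries. By size of the gap the first 6 of all 11500 genes included 4 of the 7 chosen genes and Gm8210; the remaining one, Entrez 100504629, has no symbol in the table.

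**Figure D5:**
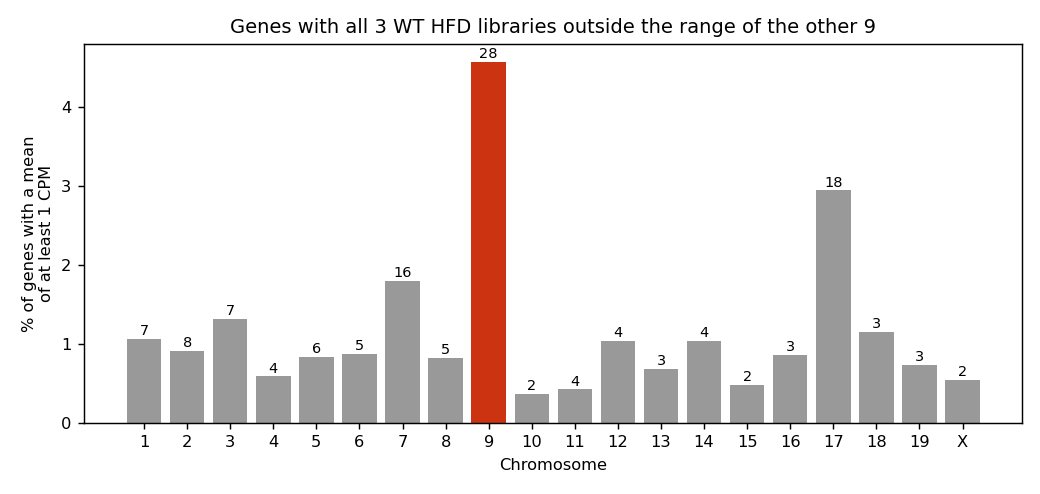
Percent of genes averaging 1 CPM or more whose 3 WT HFD libraries all lie above or all below the other 9 (vertical axis, from 0), by chromosome, with the number of such genes over each bar. Chromosome 9 has 28 genes (4.57%), followed by chromosome 17 with 18 (2.94%).

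As the genes followed one pattern over the libraries, they correlated with each other. Over the 21 pairs the absolute Pearson's r of log2(CPM + 0.5) across the 12 libraries had a median of 0.87 and ran from 0.66 to 0.96. The points share their libraries and the choice of genes, so these are descriptions only. The listed genes most like the mean profile of the 7, signed so that WT HFD is high, were Entrez 100504629 (r = −0.99), Entrez 100503055 (0.97), Gm8210 (0.96), Mapkapk3 (−0.94) and Abhd14a (−0.94). By Spearman's rho, 1 of these 5 was still among the first 5. Entrez 100504629 had 1, 1 and 0 counts in WT HFD and between 28 and 142 counts in each of the others.

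For single genes, the nearest pattern was Gm8210 for Nudt16 (r = 0.99), Entrez 100504629 for Rpl29 (0.99) and for Hyal1 (−0.92), and Hemk1 for Dusp7 (−0.97). Of these matches only Hemk1 lies on chromosome 9, while Gm8210 lies on chromosome 1 and Entrez 100504629 has no position given. The other 3 genes had their nearest match outside chromosome 9: Acp3 with Gas8 (0.93), Abhd14b with Tnfrsf22 (0.93) and Alas1 with Ndc1 (0.91).

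Other genes of the same families and pathways were taken from 7 fixed lists, 164 genes in all: 84 cytosolic ribosomal proteins, 11 heme genes, 12 hyaluronan genes, 12 MAP kinases and their phosphatases, 21 Nudix genes, 5 acid phosphatases and 19 alpha/beta hydrolase genes. For genotype on chow 0 of the 164 were called in edgeR, 5 in DESeq2 (563 of all genes) and 0 in limma-voom, and 19 had an unadjusted p under 0.05 in edgeR, against 19.8% of all genes. For diet in meKO 0 were likewise called in edgeR, 5 in DESeq2 (226 of all genes) and 0 in limma-voom, and 33 had an unadjusted p under 0.05, against 15.9% of all genes. The ribosomal protein list had a median log2 difference of 0.20 for genotype on chow and 0.36 for diet in meKO, while the medians of all genes were −0.0012 and −0.0057. The trend with transcript length differed between the libraries compared. Its rho was 0.62 and 0.67 in WT chow libraries 1 and 2, and −0.45 and −0.41 in meKO HFD libraries 2 and 3. The part of transcript length in the ribosomal medians was not tested. In the contrast of meKO HFD with WT HFD, 6 of the 164 were called in edgeR, against 0.081% of all genes. In edgeR each of the 6 was one of the chosen genes. DESeq2 called 11 of the 164 (53 of all genes), the 7 chosen genes and others, and limma-voom called 3. Without the chosen gene of each list, the list medians there ran from −0.12 for the MAP kinase list to 0.28 for the acid phosphatases, with 0.02 for all genes. Rps18, a small-subunit protein gene, had the largest value of the ribosomal list after Rpl29, 4.03 ± 1.21, with a wide spread in meKO HFD (35.1 ± 23.8 CPM, SD, n = 3). For diet in WT, 27 of the 164 were called, 22 of them other than the chosen genes, against 21.3% of all genes; 11 of the 84 ribosomal protein genes were higher in WT HFD and 1, Rpl29, lower.

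The closest relatives of the other genes were read in the contrast of meKO HFD with WT HFD. Nudt16l1, the paralog of Nudt16, was at 20.9 ± 0.860 CPM in WT HFD and 20.9 ± 2.39 in meKO HFD. Dusp6, the related ERK phosphatase, had a log2 difference of −0.37 ± 0.20 between meKO HFD and WT HFD, opposite in sign to the 0.93 of Dusp7. Among the lysosomal acid phosphatases, Acp2 differed by −0.02 ± 0.11 and Acp5 by 0.61 ± 0.12. Alad, the enzyme after Alas1 in heme synthesis, differed by 0.17 ± 0.17. Abhd14a, which overlaps Abhd14b, differed by 0.99 ± 0.21, near the 1.16 of Abhd14b.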

How the data were processed

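RNA-seq libraries followed Illumina's TruSeq protocol on Trizol RNA, per the labels' protocols. The authors deposited whole-number counts per gene and library; the submitters' processing notes name the mm10 build and DESeq2, and the aligner, counter and strand setting are not given in the sources used here. Every listed gene reached at least 0.501 CPM in 6 libraries. The 186 genes without a symbol hold 0.440% of the counts. Replicate pairs differed beyond sampling noise (chi-square per degree of freedom at least 16.9). Groups come from the sample titles.

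Counts were fitted in edgeR 4.0.16 (R 4.3.3) with TMM factors, filterByExpr, which kept all genes, and a robust quasi-likelihood F test on 4 group means over 12 libraries, two-sided, with Benjamini-Hochberg adjustment at 0.05. SE is the log2 fold change divided by the square root of F. DESeq2 1.42.0, limma 3.58.1 voom, other scalings and filters, length and GC offsets (93.5% of genes) and left-out libraries were alternatives. The fit was tested on simulated data. Sequence copies were found with blastn 2.17.0 in GENCODE transcripts.

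The members and lists were chosen with earlier results of these data known. Named genes were the members, Prkce, Lyz2, called window genes, direct neighbours, the genes most alike in pattern, and close paralogs in the family lists; window genes outside the other 9 libraries, copies, overlapping genes and Rps18 were named after their values were seen. The agent injected in all groups is not reported here.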

Additional observations from a re-analysis of the deposited data

How the results depend on the processing

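No paired analysis was possible because the labels carry no replicate numbers shared between groups; the numbers used here only name libraries in accession order. For genotype on chow, members called went from 0 to 2 with DESeq2 and ran from 0 to 1 with a library left out; window genes called went from 0 to 4 with DESeq2 and ran from 0 to 4. All genes called there, 10, became 2 with library totals, 563 with DESeq2, 2 with limma-voom, 5 with the 6 libraries alone and 4 with length and GC offsets, and ran from 2 to 2543 with a library left out, the highest without WT chow library 3. For diet in meKO, 0 members and 0 window genes were called under every alternative run; all genes called, 13, became 226 with DESeq2, 1 with the 6 libraries alone and 39 with offsets, and ran from 1 to 135, the highest without meKO HFD library 1. For meKO HFD against WT HFD, all genes called, 10, became 53 with DESeq2, 5 with limma-voom and 34 with the 6 libraries alone, and ran from 3 to 16; window genes called, 6, became 12 with DESeq2 and 3 with limma-voom, and ran from 1 to 8, with 1 when any of the WT HFD libraries or meKO HFD library 3 was left out. For diet in WT, all genes called, 2634, became 1612 with offsets and ran from 96 (without WT HFD library 3) to 4921 (without WT chow library 3). Window genes called, 14 of 40 (35.0%), ran from 4 to 22 with the same libraries left out. With 5 Mb added on each side, 38 of 126 genes (30.2%) were called. Single genes changed sign only where the value was small or a copy was added: Acp3 for genotype on chow (−0.15 to 0.91 with a library left out, below 0 without WT chow library 3 at −0.10 and without meKO chow library 3), Nudt16 for diet in meKO (−0.16 to 0.0043, the latter without meKO chow library 1), Dusp7 for diet in meKO (−0.043 to 0.14, the former without meKO HFD library 1) and Rpl29 for diet in WT (0.27 with Gm8210 added). The cause was not tested, apart from Gm8210, where the added counts make the change. Genes with WT HFD outside the other 9, 136 in all and 13 in the window, stayed within 102 to 191 and 9 to 15 under the 5 alternatives run. Of the 5 genes most alike in pattern, 1 was shared by Spearman's rho. At this depth Acp3 rests on 13 to 22 counts in each WT HFD library.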
